A study of Mus musculus with 7 samples.

Results

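The nitric oxide, natriuretic peptide and cGMP genes are 10 genes chosen by name: the nitric oxide synthases Nos1, Nos2 and Nos3, the soluble guanylyl cyclase subunits Gucy1a2, Gucy1a3 and Gucy1b3, the cGMP-dependent kinase Prkg1, and the natriuretic peptide receptors Npr1, Npr2 and Npr3. A gene counted as measured where the probe annotation gave a row of the array that symbol and no other. Of the 10 genes, 9 were measured, each by 1 row, among 14860 genes named in this way. Gucy1a3 and Gucy1b3 are listed under their current names, Gucy1a1 and Gucy1b1, and Gucy1a2 was not analysed here.

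The measured tissue was mesenteric artery, the bed of small arteries that feeds the intestine. Arteries came from 3 male transgenic mice and from 4 littermates that lacked the transgene, with 1 mouse per array of the Affymetrix mouse exon 1.0 ST type. The transgene encoded human PPARγ with the dominant-negative P467L change, placed under the smooth muscle myosin heavy chain promoter so that expression was aimed at smooth muscle. The labels used here give neither strain nor age. PPARγ is a nuclear receptor that drives genes of lipid storage, and the mutant form interferes with it.

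In the artery, nitric oxide made by endothelial cells diffuses into smooth muscle and binds the haem of soluble guanylyl cyclase, an enzyme built from an α and a β subunit, which then makes cGMP. Natriuretic peptides raise cGMP through receptors that carry their own cyclase domain. In both branches cGMP activates the kinase encoded by Prkg1, which lowers calcium, lowers the calcium sensitivity of the contractile filaments and relaxes the muscle. The design asks how interference with PPARγ in smooth muscle alters the transcripts of the vessel, and these genes make up one of its main relaxing pathways.

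None of the 9 genes was told apart between the genotypes by the fit over all rows, and 8 of 9 had a lower mean in P467L artery, with Nos3 equal in both groups. Gucy1a1, the α1 subunit of the nitric oxide receptor, was the 1 gene whose values did not overlap between the groups, at a 1.11-fold lower mean. Prkg1 had the largest difference of the 9, a 1.15-fold lower mean. Gucy1b1, the β1 subunit, had almost equal means. The rows of Nos1, Nos2, Nos3, Npr1 and Npr2 held the same value on 4 to 6 of the 7 arrays, and in Npr2 1 P467L mouse lay well below the rest.

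Values are log2 values as deposited, a difference is the P467L mean minus the non-transgenic mean, and each was tested with limma across all 23332 rows with Benjamini-Hochberg adjustment. At an adjusted p of 0.05, limma called 0 of 23332 rows (0%) and 0 of the 9 genes. The adjusted p was 1 for each of the 9. Without adjustment, 724 rows had a p under 0.05, or 3.10% of all rows, and 0 of the 9 genes did. Groups that do not overlap, with P467L lower, were seen in 298 rows, or 1.28%, and in 1 of the 9 genes. The median difference was -0.043 over the 9 genes and -0.0025 over all rows, of which 50.7% had a lower mean in P467L artery. An exact two-sided permutation test of 3 mice against 4 cannot give a p below 0.0571, so it could not pass 0.05 for any gene. Because the genes were named with earlier results of these data known, these counts describe them and do not test them as a group. The samples are whole vessels, so fewer cells of a type and less RNA per cell cannot be told apart.

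**Figure D1:**
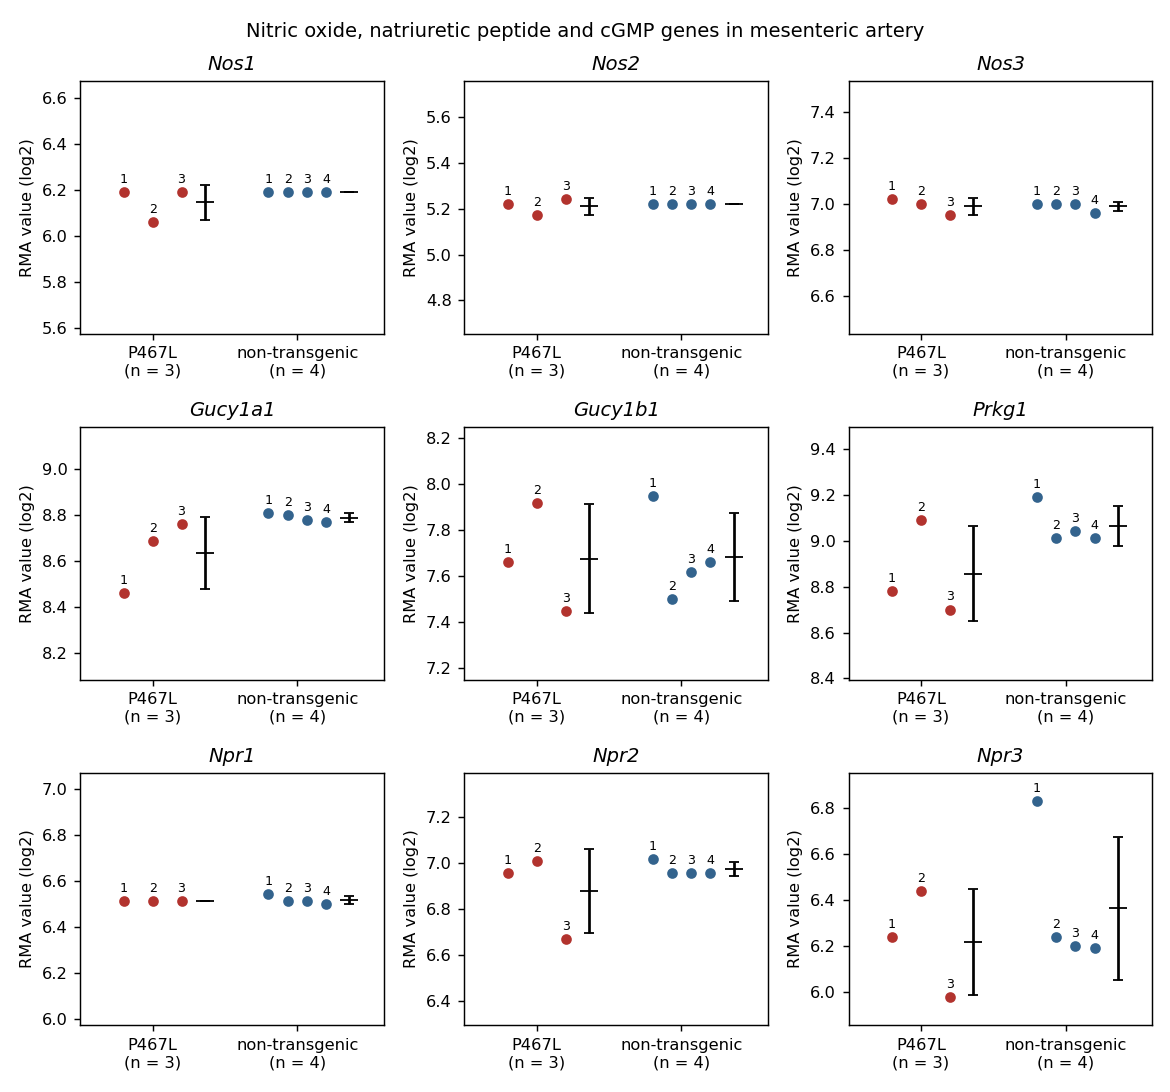
RMA values (log2) of the 9 measured genes in each mouse, with P467L mice in red on the left and non-transgenic mice in blue on the right of each panel; the digit is the replicate number and the black bar is the mean ± SD. All panels span the same height of log2 units around their own centre, so that the flat rows of the synthases and Npr1 can be set against the spread of Gucy1b1, Prkg1 and Npr3, and Npr2 shows 1 low P467L mouse; Gucy1a1 is the 1 panel in which the groups do not overlap.

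Markers of the vessel wall were read on every array. Myh11, the smooth muscle myosin whose promoter drove the transgene, lay between 11.32 and 11.44 in P467L and between 11.44 and 11.57 in non-transgenic mice, and Acta2, smooth muscle actin, lay between 11.94 and 12.08 on all arrays. The endothelial marker Pecam1 lay between 10.39 and 10.83, and the fat hormone gene Adipoq between 8.55 and 9.62 in P467L and between 8.45 and 10.69 in non-transgenic mice. Pparg itself was at 6.73, 6.77 and 6.48 in P467L mice, against 7.20, 6.49, 6.68 and 6.73 in non-transgenic mice; that row was designed on the mouse gene and cannot serve as a check of the genotype labels unless it also reads the human transcript, which was not tested. Array medians were 6.29 to 6.34. P467L replicate 3 gave the lowest value for 5 of the 9 genes, and for 24.8% of all rows. Non-transgenic replicate 1 gave the highest value for 6 of the 9 genes, and for 19.6% of all rows. Values without these 2 mice are given below where they matter.

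The soluble guanylyl cyclase subunits are described first. Gucy1a1 and Gucy1b1 are neighbouring genes on chromosome 3 of the mouse, with 0 other protein-coding genes between them in the RefSeq annotation. The proteins form the heterodimer that senses nitric oxide: the β1 subunit holds the haem, and both subunits contribute to the catalytic site. The sequences upstream of both starts are shown because the 2 genes lie side by side, encode partners of the same enzyme and are the 2 members whose values are set side by side below. Each is the 250 bases before a RefSeq start in build GRCm38.p6 on the minus strand, 5′ to 3′, with the GC box GGGCGG (either strand) in capitals.
Gucy1a1, chr3:82145651-82145900: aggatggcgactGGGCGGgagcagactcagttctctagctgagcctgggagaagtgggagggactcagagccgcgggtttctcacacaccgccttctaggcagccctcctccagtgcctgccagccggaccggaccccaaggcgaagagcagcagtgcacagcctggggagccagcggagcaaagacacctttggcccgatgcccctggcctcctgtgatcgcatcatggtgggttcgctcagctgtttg
Gucy1b1, chr3:82074712-82074961: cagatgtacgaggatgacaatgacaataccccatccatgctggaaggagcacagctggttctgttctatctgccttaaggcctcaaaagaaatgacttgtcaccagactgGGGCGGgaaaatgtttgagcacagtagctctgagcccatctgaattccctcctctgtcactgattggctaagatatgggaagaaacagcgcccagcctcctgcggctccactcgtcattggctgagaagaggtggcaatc
The printed Gucy1a1 window lies inside the annotated span of the gene, which has further starts, and the Gucy1b1 window lies outside its own gene's span. The window of another Gucy1a1 start, chr3:82145074-82145323, was searched as well, held 0 GC boxes and is not printed. Windows of this kind were found for 7 of the 9 genes, 9 windows in all. A GC box was found in 5 of 9 windows and in 32.7% of all 32851 RefSeq windows of the same length. A gene with several starts counts more than once here, and both Prkg1 windows held a GC box. The GC content of the 9 windows ran from 38.8% to 70.4%, and most lay above the median of 52.4% over all windows. The nuclear receptor core motif AGGTCA was found in 0 of 9 windows and in 14.0% of all windows, its direct repeat with 1 base between the copies, AGGTCANAGGTCA, to which PPARγ binds as a dimer with RXR, in 0 of 9 and 0.0335%, and the CArG box of smooth muscle genes in 0 of 9 and 1.47%. Both strands were searched, and the direct repeat contains the core motif. These matches describe the letters of short windows and say nothing of binding.

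Gucy1a1 was at 8.46, 8.69 and 8.76 in P467L replicates 1, 2 and 3, against 8.81, 8.80, 8.78 and 8.77 in non-transgenic replicates 1 to 4. All P467L values lay below all non-transgenic ones, but P467L replicate 3 came within 0.01 of the lowest littermate. The means were 8.637 ± 0.157 (SD, n = 3) in P467L and 8.790 ± 0.018 (SD, n = 4) in non-transgenic artery, so the transgenic mice were the more spread group. The difference was -0.15 ± 0.075 (SE), and its 95% interval ran from -0.34 to 0.029 (limma, adjusted p = 1; unadjusted p = 0.0856), which leaves room for a mean up to 1.26-fold lower. The exact two-sided permutation p was 0.0571, the smallest possible here. A difference of this size or larger, in either direction, was present in 26.0% of all rows. Without P467L replicate 1 the difference was -0.065, so that mouse carried more of it than any other.

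Gucy1b1 was at 7.66, 7.92 and 7.45 in P467L mice, against 7.95, 7.50, 7.62 and 7.66 in non-transgenic mice. Both groups ran from about the same low to about the same high value. The means were 7.677 ± 0.235 (SD, n = 3) and 7.683 ± 0.191 (SD, n = 4), differing by -0.0058 (95% interval -0.37 to 0.36; limma, adjusted p = 1; exact permutation p = 0.914). The interval still allows a mean 1.29-fold lower or 1.28-fold higher. The sign of so small a value is not settled: it was 0.015 when arrays were weighted, 0.13 when an adipocyte marker score entered the fit and 0.11 without P467L replicate 3.

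No relation between the subunits was resolved. Across the 7 mice Pearson's r between Gucy1a1 and Gucy1b1 was -0.042 (exact permutation p = 0.946; Spearman's rho 0.054, p = 0.919; Benjamini-Hochberg adjusted p = 1 for both over 36 pairs of the 9 genes). After each group's mean was subtracted, r was -0.071. Without P467L replicates 1 and 2, the mice farthest from the median of Gucy1a1, r was 0.63 over 5 mice, so the value rests on those mice. No interval was computed for r, and at n = 7 its sign is not settled.

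Prkg1, the kinase that both branches converge on, was at 8.78, 9.09 and 8.70 in P467L mice, against 9.19, 9.01, 9.04 and 9.01 in non-transgenic mice. P467L replicates 1 and 3 lay below every littermate, and replicate 2 lay above 3 of the 4. The means were 8.857 ± 0.206 (SD, n = 3) and 9.062 ± 0.086 (SD, n = 4). The difference was -0.21 ± 0.11 (SE), and its 95% interval ran from -0.46 to 0.052 (limma, adjusted p = 1; unadjusted p = 0.0983; exact permutation p = 0.229), a bound of 1.38-fold lower. With 1 mouse left out the difference ran from -0.32, without P467L replicate 2, to -0.13, and it stayed negative in every such fit.

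The synthases, which supply nitric oxide, showed no difference that these rows could resolve. Nos3, the endothelial enzyme and the main source of nitric oxide in the vessel wall, was at 7.02, 7.0 and 6.95 in P467L mice, against 7.0, 7.0, 7.0 and 6.96 in non-transgenic mice. The group means were equal, and the 95% interval ran from -0.080 to 0.080 (limma, adjusted p = 1). On the deposited scale that interval reaches 1.06-fold in either direction. The row held 1 value on 4 arrays, so a larger change in the transcript is not excluded. Nos1, the neuronal enzyme found in perivascular nerves, was at 6.19, 6.06 and 6.19 in P467L mice, against 6.19 in every non-transgenic mouse. Its difference of -0.043 came from P467L replicate 2 and was 0 without that mouse. Nos2, the inducible enzyme of activated macrophages and inflamed muscle, was at 5.22, 5.17 and 5.24 in P467L mice, against 5.22 in all 4 littermates, a difference of -0.010. Its values fell below the lower quartile of each array, 5.26 to 5.29.

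Such repeated values limit what these rows can show. The deposited values have 2 decimals and were summarised over probes by the RMA method, and a row in which most arrays carry 1 value shows little of the spread between mice. Of the 9 genes, 5 had the same value on 4 or more arrays, and 20% of all rows did. For these rows the narrow intervals above cover the deposited values and not the probes behind them.

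The natriuretic peptide receptors came next. Npr1, the cyclase-linked receptor for atrial and brain natriuretic peptide, was at 6.51 in all 3 P467L mice, against 6.54, 6.51, 6.51 and 6.50 in non-transgenic mice, a difference of -0.0050. Npr2, the cyclase-linked receptor for C-type natriuretic peptide, was at 6.96, 7.01 and 6.67 in P467L mice, against 7.02, 6.96, 6.96 and 6.96 in non-transgenic mice. P467L replicate 3 lay apart below the other 6 arrays. Its difference of -0.095 (95% interval -0.31 to 0.12; limma, adjusted p = 1) became 0.010 without that mouse.

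Npr3 encodes the clearance receptor, which takes natriuretic peptides out of circulation, lacks a cyclase domain and is abundant in fat. It was at 6.24, 6.44 and 5.98 in P467L mice, against 6.83, 6.24, 6.20 and 6.19 in non-transgenic mice. Non-transgenic replicate 1 stood far above the other 6 mice, and P467L replicate 3 was the lowest. The difference was -0.15 (95% interval -0.63 to 0.34; limma, adjusted p = 1; exact permutation p = 0.686), and without non-transgenic replicate 1 it was 0.010. Of the 9 genes it had the widest range over all mice, 0.85 log2 units.

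Marker scores of fat and of endothelium were set beside this gene. Each of the 7 adipocyte markers that were measured had a lower mean in the P467L group, with 0 called, and their score, the mean over the markers of the log2 deviation from each marker's mean over all arrays, was -0.35, 0.081 and -0.25 in P467L mice, against 0.92, -0.36, -0.075 and 0.038 in non-transgenic mice. The adipocyte score was highest in the mouse with the highest Npr3. Across the 7 mice Pearson's r between the score and Npr3 was 0.88 (exact permutation p = 0.0353; Spearman's rho 0.41, p = 0.360; Benjamini-Hochberg adjusted p = 0.200 and 0.698 over 27 relations of the 9 genes with 3 marker scores). Without the 2 mice farthest from the median score, non-transgenic replicates 1 and 2, r was 0.55. Without non-transgenic replicate 1 alone it was 0.43, so the relation rests largely on that mouse. The adipocyte score was not close to Npr3 alone. Its r was 0.79 with Gucy1b1 (exact permutation p = 0.0103, adjusted p = 0.188), and 0.70 without non-transgenic replicate 1. With Npr1 its r was 0.82 (exact permutation p = 0.119, adjusted p = 0.357), and -0.48 without that mouse. The endothelial score described below had an r of 0.80 with Npr3 (exact permutation p = 0.0139; Spearman's rho 0.85, p = 0.0238; adjusted p = 0.188 and 0.297 over the same relations), 0.89 after each group's mean was subtracted, and 0.67 without non-transgenic replicate 1. None of these relations passed after adjustment. With the adipocyte score, scaled per marker, as a covariate in the fit, the difference of Npr3 was 0.047 and that of Prkg1 was -0.14. The part of either cell type in the Npr3 values was not tested beyond these figures.

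Markers of endothelium were set beside Nos3 in the same way. Of 10 endothelial markers 7 had higher and 3 lower means in P467L artery, with 0 called, and their score was 0.13, 0.11 and -0.17 in P467L mice, against 0.23, -0.094, -0.00029 and -0.20 in non-transgenic mice. P467L replicate 3 and non-transgenic replicate 4 had the lowest endothelial scores, and they also had the 2 lowest Nos3 values. Pearson's r of the score with Nos3 was 0.77 (exact permutation p = 0.0429; Spearman's rho 0.77, p = 0.0476; adjusted p = 0.200 and 0.297 over the same 27 relations), and r was 0.81 without non-transgenic replicates 1 and 4. The same score had r of 0.77 with Gucy1b1 (exact permutation p = 0.0444) and 0.73 with Npr1 (exact permutation p = 0.0238). Adjusted p was 0.200 for each. The relation is thus not particular to Nos3, and none of these relations passed after adjustment. Nos3 itself spans 0.07 log2 units in all. The smooth muscle score, over 7 markers that all had lower means in P467L artery, with 0 called, was -0.10, -0.017 and -0.15 in P467L mice, against 0.050, 0.18, 0.054 and -0.018 in non-transgenic mice. Its r with Prkg1 was 0.69 (exact permutation p = 0.0810; Spearman's rho 0.61, p = 0.153; adjusted p = 0.273 and 0.414) and 0.86 without P467L replicate 3 and non-transgenic replicate 2. After each group's mean was subtracted, r of the smooth muscle score with Prkg1 was 0.42. The adipocyte score was about as close to Prkg1, with r of 0.72 (exact permutation p = 0.0659, adjusted p = 0.254). After each group's mean was subtracted that r was 0.67. The part of smooth muscle content in the Prkg1 difference was not tested. Of 6 mural markers, genes of pericytes and other wall cells, 5 had lower means in P467L artery, 1 was equal and 0 were called. Groups did not overlap in 2, Rgs5 and Abcc9, both lower, against 1.28% of all rows in that direction and 2.57% in either. In the other marker lists, groups did not overlap in the smooth muscle marker Smtn, lower, and the fibroblast marker Dcn, higher. The mural score was -0.16, -0.15 and -0.18 in P467L mice, against 0.14, 0.12, 0.088 and 0.15 in non-transgenic mice, with no overlap. Rgs5 differed by -1.06 and the other mural markers by -0.28 to 0, so Rgs5 carried more of the score's difference than any other. The lack of overlap in the score depends on Rgs5. In the mean of the other mural markers the groups overlapped, with P467L replicate 3 above non-transgenic replicate 1. Rgs5, a brake on G protein signalling, was at 10.28, 10.48 and 9.53 in P467L mice, against 11.44, 10.94, 11.09 and 11.14 in non-transgenic mice (limma, adjusted p = 1). The part of mural cells in the lower means of Gucy1a1 and Prkg1 was not tested. Macrophage markers, of which 8 of 8 had higher means in P467L artery with 0 called, had a score of 0.095, 0.39 and -0.20 in P467L mice, against 0.10, -0.16, -0.074 and -0.16 in non-transgenic mice. The Nos2 row, which such cells can raise, lay within 0.07 log2 units on all arrays.

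**Figure D2:**
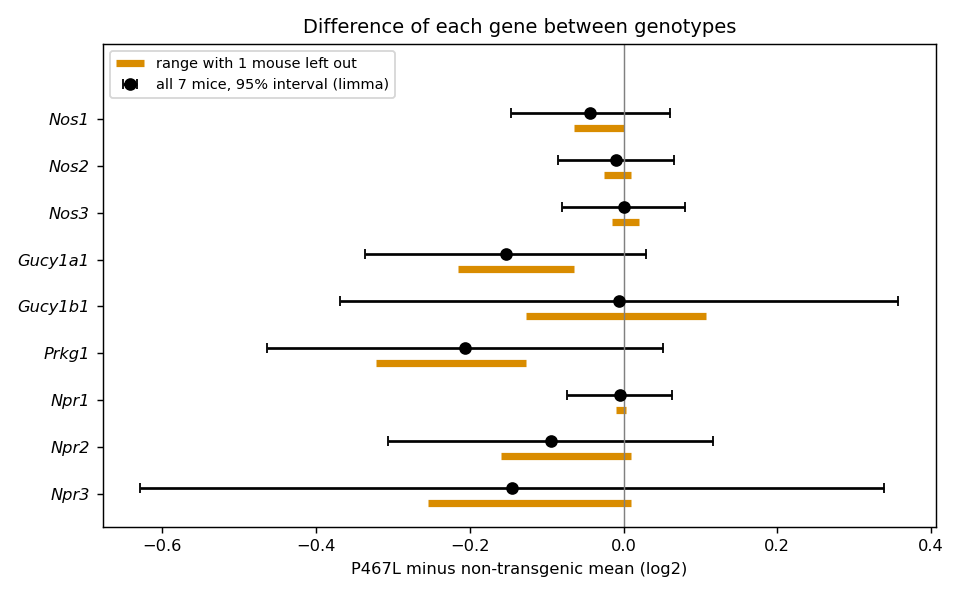
Difference of the P467L mean from the non-transgenic mean (log2) for each gene, with the 95% interval of the fit on all 7 mice (black) and, in orange, the range of the difference when 1 mouse is left out in turn. Every interval includes 0; the orange bars of Gucy1a1 and Prkg1 stay below 0, that of Nos1 reaches from below up to 0, and those of the other 6 genes reach both sides of it.

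Several pairs of genes had similar orders of the mice, none of them past the adjusted threshold. Gucy1b1 and Npr3 had Pearson's r of 0.88 over the 7 mice (exact permutation p = 0.00397; Spearman's rho 0.77, p = 0.0492; adjusted p = 0.0857 and 0.333 over 36 pairs), 0.91 after each group's mean was subtracted, and 0.65 without non-transgenic replicate 1 and P467L replicate 2. Gucy1b1 and Prkg1 had r of 0.71 (exact permutation p = 0.0706; Spearman's rho 0.75, p = 0.0556; adjusted p = 0.424 and 0.333), 0.91 after the group means were subtracted, and 0.36 without the same 2 mice. Npr2 and Prkg1 had r of 0.79 (exact permutation p = 0.00476; Spearman's rho 0.91, p = 0.00952; adjusted p = 0.0857 and 0.114), 0.75 after the group means were subtracted, and 0.92 without P467L replicates 1 and 3. Spearman's rho of Npr2 was also 0.91 with Gucy1b1 and with Npr3, in a row with 1 value on 4 arrays. Of the 36 pairs 0 passed after adjustment; the smallest adjusted p was 0.0857 for Pearson's r, 0.114 for Spearman's rho and 0.0771 after the group means were subtracted. In the pairs of Gucy1b1 with Prkg1 and Npr3 the high end was held by non-transgenic replicate 1 and P467L replicate 2 and the low end by P467L replicate 3, across the genotypes.

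**Figure D3:**
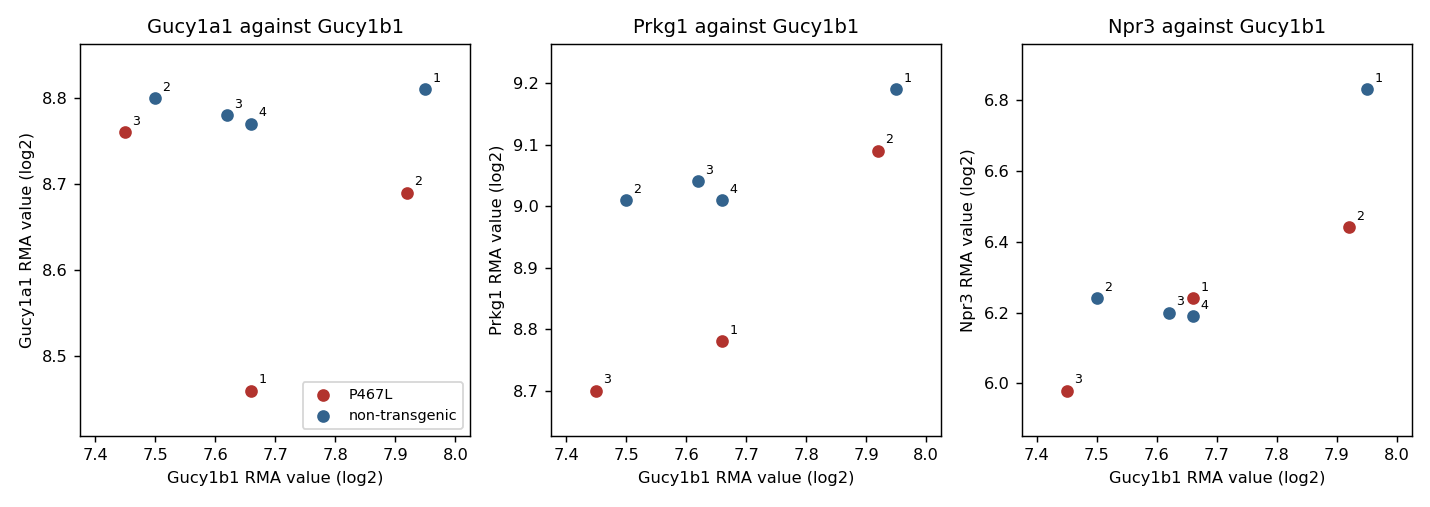
Gucy1a1, Prkg1 and Npr3 (vertical axes) against Gucy1b1 (horizontal axis), RMA values in log2, 1 point per mouse with its replicate number; P467L red, non-transgenic blue. Prkg1 and Npr3 were high in the mice with high Gucy1b1, non-transgenic replicate 1 and P467L replicate 2, whereas Gucy1a1 was lowest in P467L replicate 1, a mouse with a middling Gucy1b1 value.

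Rows with the most similar pattern were looked up among 4549 rows that carry 1 symbol and span at least 0.5 log2 units (4548 for Gucy1b1 and Npr3, which are among them). The closest row was Gpr20 for Gucy1a1 (r = 0.938 over 7 arrays), Ptpn2 for Gucy1b1 (r = 0.999), Map3k5 for Prkg1 (r = 0.991) and Dock11 for Npr3 (r = 0.998). With so many rows and 7 arrays some r near 1 is bound to be found, so these names are a description. Ptpn2 shows how close the fit was, at 6.89, 7.23 and 6.61 in P467L mice, against 7.25, 6.71, 6.85 and 6.89 in non-transgenic mice. For the rows with repeated values the closest were Klk9 for Nos1, Plk5 for Nos2, Olfr866 for Nos3, 1700102P08Rik for Npr1 and Diaph2 for Npr2, and these share with them mainly the arrays that depart from the common value.

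The rest of the pathway was described from 7 lists of 80 genes, of which 65 were measured. Of the 65, limma called 0, 26 had higher and 38 lower means in P467L artery and 1 was equal, and the median difference was -0.010. Groups did not overlap in 4 of 65 genes, or 6.15%, against 2.57% of all rows in either direction. Those 4 were Slc7a2, Mrvi1 and Ppp1r14a, lower in P467L artery, and Corin, higher. The lists were drawn up with earlier results of these data known, so their counts are not independent evidence.

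Among the genes that supply and partner the synthases, 7 of 17 had higher and 10 lower means, with a median of -0.0092. Slc7a2, a carrier of cationic amino acids such as the synthase substrate arginine, had the largest difference of all 65 genes. It was at 7.42, 7.64 and 7.10 in P467L mice, against 7.85, 7.92, 7.86 and 7.92 in non-transgenic mice. All P467L values lay below all non-transgenic ones, at a 1.42-fold lower mean (difference -0.50, 95% interval -0.80 to -0.20; limma, adjusted p = 1; unadjusted p = 0.00682). Slc7a1, the other arginine carrier on the list, differed by -0.033, Prmt1, which methylates arginine in proteins, by -0.11, and Gch1, the entry enzyme for the synthase cofactor tetrahydrobiopterin, by 0.10. Cav1, the caveolar protein that holds Nos3 in check, differed by 0.043.

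Of 4 genes that remove nitric oxide or its products 3 had higher means, with 0 called and a median of 0.15. Adh5, which reduces S-nitrosoglutathione, was at 8.43, 8.59 and 8.50 in P467L mice, against 8.45, 8.35, 8.35 and 8.31 in non-transgenic mice, a 1.10-fold higher mean (difference 0.14; limma, adjusted p = 1; unadjusted p = 0.0409) with groups that overlapped. Cyb5r3, which keeps globin haem and the haem of soluble guanylyl cyclase in the reduced state, differed by 0.18 and the muscle globin Mb by -0.15.

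On the ligand side, 5 of 8 genes of natriuretic peptides and their processing had higher means, with a median of 0.0050. Corin, the protease that activates the atrial peptide, was at 7.65, 7.99 and 7.65 in P467L mice, against 7.31, 7.62, 7.56 and 7.54 in non-transgenic mice. The groups did not overlap, at a 1.19-fold higher mean (difference 0.26; limma, adjusted p = 1; unadjusted p = 0.0703). The peptide genes Nppa, Nppb and Nppc differed by 0.0058, 0.15 and -0.019. Mme, the peptide-degrading neprilysin, was at 4.81, 5.26 and 5.13 in P467L mice, against 6.05, 4.93, 5.09 and 5.20 in non-transgenic mice, so its difference of -0.25 came from 1 littermate, non-transgenic replicate 1.

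Of 9 genes measured from a list named for the phosphodiesterases that break cGMP down, 8 had lower means, with a median of -0.055. Over all rows, 50.7% had a lower mean. Pde5a and Pde11a, also on that list, were not measured. Pde1a, a calcium-activated form found in arterial muscle, differed by -0.12, Pde9a by -0.057 and Pde1b by -0.055, the last 2 in rows with the same value on 5 arrays. The other cyclases and the kinase Prkg2 were flat: Gucy2e, Gucy2f and Gucy2g differed by 0.013, -0.0050 and -0.010, and the median of the 5 was 0. Of 5 cGMP-gated channel and transport genes 3 had higher means, with Cnga3 at 0.068, Cngb3 at 0.027 and Cngb1 at -0.024.

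Targets and effectors of the kinase had lower means in 12 of 17 genes, with a median of -0.048. Mrvi1, the inositol trisphosphate receptor partner through which the kinase curbs calcium release, was at 7.72, 7.71 and 7.57 in P467L mice, against 7.76, 7.97, 7.84 and 7.76 in non-transgenic mice. Its groups did not overlap, at a 1.12-fold lower mean (difference -0.17; limma, adjusted p = 1; unadjusted p = 0.0559). Ppp1r14a, an inhibitor of myosin phosphatase, was at 9.59, 9.37 and 9.65 in P467L mice, against 9.71, 9.97, 9.68 and 9.69 in non-transgenic mice, a 1.17-fold lower mean. Hspb6, a small heat shock protein phosphorylated during relaxation, differed by -0.26 (limma, adjusted p = 1; unadjusted p = 0.0493) and Kcnma1, a calcium-activated potassium channel, also by -0.26. In both, the highest P467L value equalled the lowest non-transgenic one. Kcnmb1, its β1 subunit, and Vasp, a classical kinase substrate, differed by -0.031 and 0.0092. The smooth muscle score given above was also lower in P467L mice on balance, and its part in these differences was not tested.

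**Figure D4:**
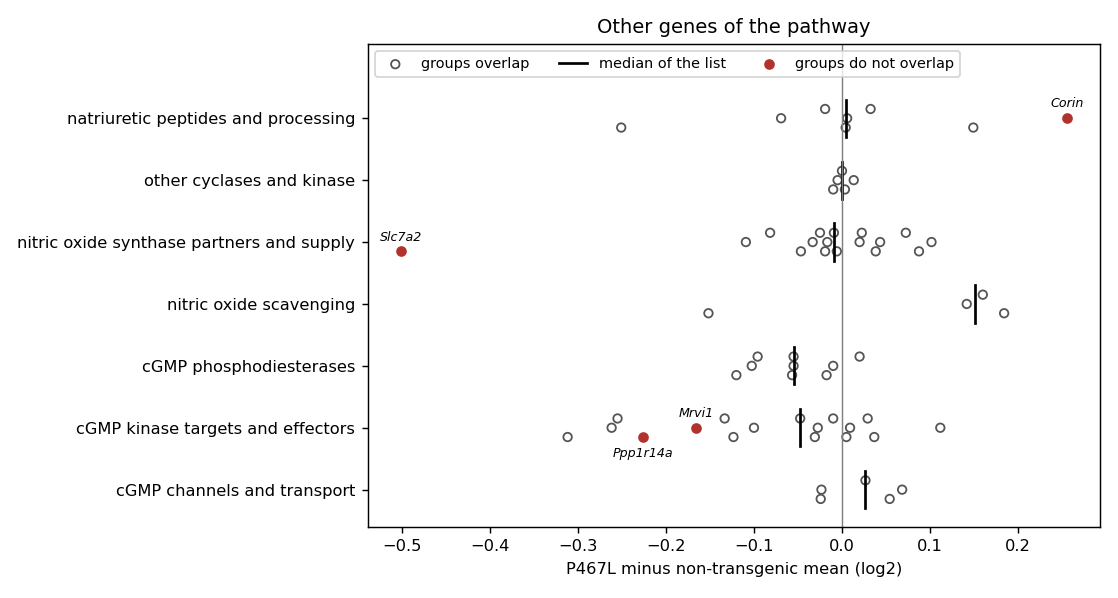
Difference of the P467L mean from the non-transgenic mean (log2) for the 65 other measured genes of the pathway, by list; each circle is a gene, red where the groups do not overlap and open where they do, and the black stroke is the list's median. Most genes lie within 0.2 log2 units of 0; Slc7a2, Mrvi1 and Ppp1r14a are the red circles to the left and Corin the red circle to the right.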

How the data were processed

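Total RNA of mesenteric artery from 7 mice was amplified from about 50 ng and hybridised to Affymetrix mouse exon 1.0 ST arrays, 1 mouse per array and not pooled, per the labels' protocols. The deposited values are log2 values with 2 decimals, which the authors made by RMA in Affymetrix Power Tools (build mm9), per the submitters' processing notes. Versions are not given. Precision is limited by having 7 arrays. Of 23332 rows, 14996 had 1 gene symbol in the platform annotation, 1019 had several and 7317 had none. Beside the 7 sample columns there were 0 columns of per-sample values.

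Groups were taken from the sample titles. A linear model with genotype as its 1 term was fitted to all rows by limma (version 3.58.1, under R 4.3.3). Its statistics were moderated by eBayes, and p-values were adjusted by Benjamini-Hochberg. The fit was also run on simulated continuous values, which do not mimic rows with repeated values and so say nothing of those. Exact permutation tests used all 35 splits of the mice, or all 5040 pairings for correlations (scipy 1.17.1). The members and gene lists were chosen with earlier results of these data known. Named genes are the members, up to 3 genes of smallest p per list, genes with groups that do not overlap, and the most similar row of each member; Gch1, Cav1, Nppa, Nppc, Kcnmb1 and Vasp were named after their values were seen, as were Myh11, Acta2, Pecam1 and Adipoq as markers. Relations with marker scores were added after the values were seen. Promoter windows are from RefSeq, build GRCm38.p6, matched by gene identifier. Alternatives changed the normalization (quantile again, or median centring), dropped the dimmest 25% or 50% of rows, used a trended robust prior or weighted arrays, added the replicate number as a block or the adipocyte score, or left out each mouse in turn. Dropping rows with the same value on 4 or more arrays was chosen after seeing the data. Each member had 1 row, so another row could not be tried. Correlations of deviations from the group means between mice of the same replicate number were 0.12, -0.21 and -0.090, so the numbers were not taken to pair the mice.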

Additional observations from a re-analysis of the deposited data

Results flagged for a closer look

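The highest and lowest of the 4 non-transgenic mice were compared with the other 3 in 37 genes. A value was marked where its gap to the nearest of them exceeded Dixon's critical share of the group's range. Chance gives such a mark in about 1 of 20 groups of continuous values, a rate that does not hold for rows with repeated values. Among the 9 genes the marked values were Npr3 at 6.83 in non-transgenic replicate 1, a gap of 0.59, Prkg1 at 9.19 in the same mouse, a gap of 0.15, Npr2 at 7.02 in the same mouse and Nos3 at 6.96 in non-transgenic replicate 4. Npr2 and Nos3 were marked because the other 3 littermates carried 1 value, and the gaps were 0.06 and 0.04. Among the other genes of the pathway, Ppp1r14a at 9.97, Kcnma1 at 7.91, Pde1b at 6.63 and Slc7a1 at 6.61 were marked in non-transgenic replicate 2. Cngb1 at 6.91, Gucy2g at 5.44 and, as the lowest, Gucy2e at 5.57 were marked in non-transgenic replicate 3, and Gucy2f at 3.71 in non-transgenic replicate 1. The gaps of Ppp1r14a and Kcnma1 were 0.26 and 0.28, and those of the remaining 6 genes were 0.02 to 0.11. In Pde1b, Cngb1, Gucy2g, Gucy2e and Gucy2f the other 3 littermates again carried 1 value. The 37 genes are fewer than the genes described above, so a gene that was not marked was not necessarily checked. Kcnmb1, at 9.79 in non-transgenic replicate 2 against 9.60 in the other 3 littermates, is not among the marked values.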

How the results depend on the processing

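In each of the alternatives, limma called 0 rows higher and 0 rows lower, and the adjusted p of the 9 genes stayed above 0.05, the smallest being 0.322 for Gucy1a1. The differences of Gucy1a1 and Prkg1 stayed negative in every fit. With 1 mouse left out they ran from -0.215 to -0.065 and from -0.32 to -0.13, and the Gucy1a1 difference was -0.28 with array weights, which favour P467L replicate 1. Signs changed for other genes. Gucy1b1 ran from -0.13 to 0.11 with 1 mouse left out, and was 0.015 with array weights and 0.13 with the adipocyte score in the fit. Npr1 ran from -0.010 to 0.0033 and was 0.0041 with the score. Npr3 ran from -0.26 to 0.010 and was 0.047 with the score. Npr2 ran from -0.16 to 0.010, Nos2 from -0.025 to 0.010, Nos1 from -0.065 to 0 and Nos3 from -0.015 to 0.020. The correlation of Gucy1a1 and Gucy1b1 was 0.63 without the 2 mice farthest from the median. Causes were not tested, beyond the left-out mice themselves. With the replicate number as a block, Gucy1a1 differed by -0.16 and Prkg1 by -0.22, and no call changed; the mice share a number and are not known to be paired. With rows tied on 4 or more arrays left out, the rows of Nos1, Nos2, Nos3, Npr1 and Npr2 drop out. The number of mice and the repeated values limit all of these results.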

Other observations

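The spread within the groups was larger among P467L than among non-transgenic mice for 7 of the 9 genes, the exceptions being Npr1 and Npr3, and for 58.9% of all rows. The range of Gucy1a1 was 0.30 log2 units over 3 P467L mice against 0.04 over 4 littermates, and that of Npr2 was 0.34 against 0.06. The weights that limma gave the P467L arrays were 3.54, 0.463 and 0.334 for replicates 1, 2 and 3.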
